A study of Mus musculus with 22 samples.

Results

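The genes described here encode the nuclear subunits of the oxidative phosphorylation system. Members were taken by gene symbol from the annotation of the array's probe sets, and 83 of the 19938 genes with a measured value were members. Complex I (NADH dehydrogenase) had 36 members, complex II (succinate dehydrogenase) 4, complex III (cytochrome bc1) 8, complex IV (cytochrome c oxidase) 17, complex V (ATP synthase) 17, and cytochrome c, Cycs, was 1 gene. The rule uses gene symbols alone. Ndufa4 and its paralog Ndufa4l2 were counted with complex I after their symbols, although Ndufa4 is known as a subunit of complex IV.

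The study injured the tibialis anterior muscle of C57B6/J mice with cardiotoxin and sorted macrophages from the muscle on days 1, 2, 4 and 8. After CD45+ cells had been collected on magnetic beads, antibodies to Gr1 and Cx3cr1 gave a Gr1+/Cx3cr1low and a Gr1-/Cx3cr1high subset, also labelled Ly6C+ F4/80low and Ly6C- F4/80high and called Gr1-positive and Gr1-negative here. RNA of each sample was hybridised to 1 Affymetrix array, 22 in all. Each group had 3 arrays labelled as biological replicates, except the Gr1-positive group of day 8, which had 1. The mice of all groups carried the cardiotoxin injury, and macrophages of uninjured muscle were not analysed here. The labels do not say whether a replicate was 1 mouse or a pool, so the p-values measure the spread between these arrays.

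Electrons from NADH enter the respiratory chain at complex I and those from succinate at complex II, pass over complex III and cytochrome c, and reach oxygen at complex IV. Complexes I, III and IV pump protons across the inner mitochondrial membrane, and complex V uses the gradient to make ATP. In macrophages, inflammatory activation is known to lower respiration in favour of glycolysis, and cells of the alternatively activated type are known for high respiration.

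Promoter sequence was at hand for 68 of the 83 members, as 73 windows from 250 bases before to 50 bases after a transcription start (RefSeq, build GRCm38.p6). Letter strings that resemble the binding sites of known regulators of respiratory genes were searched on both strands. The string GCGCATGC, of the NRF1 site, stood in the windows of 16.2% of the members and of 3.0% of all 27025 genes with a window. CCGGAAG, the core bound by ETS factors such as GABPA, stood in 25.0% against 9.9%, AAGATGGC, of YY1, in 14.7% against 3.2%, and TCAAGGTCA, of the estrogen-related receptors, in 2.9% against 0.5%. A match is a string of letters in a window, and binding was not measured. The 27025 genes were not limited to measured genes or to genes with signals as high as those of most members. Whether the members differ in these strings from other genes of like signal was not tested. The NRF1 string overlaps its own reverse complement, and a gene with both was counted once. The 5 windows printed here belong to members whose time courses are described further on, and capitals mark the matches.
Cycs (chr6:50566520-50566819, minus strand, with the NRF1 string 60 bases before the start): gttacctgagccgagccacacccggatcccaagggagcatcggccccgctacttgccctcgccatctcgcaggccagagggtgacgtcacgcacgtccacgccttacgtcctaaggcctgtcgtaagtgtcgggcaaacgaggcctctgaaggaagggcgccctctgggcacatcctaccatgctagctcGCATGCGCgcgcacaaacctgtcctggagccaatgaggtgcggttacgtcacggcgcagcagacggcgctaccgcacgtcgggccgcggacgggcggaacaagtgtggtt
Atp5g2 (chr15:102670998-102671297, minus strand, with the NRF1 string 42 bases before the start): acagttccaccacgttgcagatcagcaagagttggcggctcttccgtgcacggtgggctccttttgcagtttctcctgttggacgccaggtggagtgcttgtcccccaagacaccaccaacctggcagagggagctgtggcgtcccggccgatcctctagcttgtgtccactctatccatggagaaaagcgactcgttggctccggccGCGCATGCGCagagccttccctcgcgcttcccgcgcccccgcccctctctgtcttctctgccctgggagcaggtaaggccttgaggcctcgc
Cox6a1 (chr5:115348909-115349208, minus strand, with the NRF1 string 162 bases before the start and an ETS string nearer to it): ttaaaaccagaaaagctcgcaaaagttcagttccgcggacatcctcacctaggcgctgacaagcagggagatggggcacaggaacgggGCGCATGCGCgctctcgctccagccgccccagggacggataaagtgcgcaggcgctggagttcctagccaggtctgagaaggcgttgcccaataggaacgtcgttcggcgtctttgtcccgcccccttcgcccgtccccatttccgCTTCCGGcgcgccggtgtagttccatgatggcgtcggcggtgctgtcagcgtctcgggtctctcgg
Ndufb6 (chr4:40279372-40279671, minus strand, with an ETS string 232 bases before the start): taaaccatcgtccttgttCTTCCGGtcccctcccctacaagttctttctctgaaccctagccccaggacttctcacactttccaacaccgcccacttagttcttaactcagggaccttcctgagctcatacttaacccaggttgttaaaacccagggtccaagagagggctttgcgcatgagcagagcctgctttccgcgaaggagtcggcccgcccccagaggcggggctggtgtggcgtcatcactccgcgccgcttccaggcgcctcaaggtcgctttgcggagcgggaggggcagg
Cox7a2l (chr17:83514284-83514583, minus strand, with none of the 4 strings): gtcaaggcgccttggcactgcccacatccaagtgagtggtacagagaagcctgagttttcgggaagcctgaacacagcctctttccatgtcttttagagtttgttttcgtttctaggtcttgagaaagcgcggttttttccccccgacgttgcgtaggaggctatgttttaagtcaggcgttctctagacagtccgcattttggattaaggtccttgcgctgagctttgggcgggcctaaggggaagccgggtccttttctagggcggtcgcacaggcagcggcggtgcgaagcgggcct

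Values are log2 signals normalised over the whole array set, so a difference of 1 is a doubling. Array medians over all probe sets lay between 7.02 and 7.18. The macrophage marker genes averaged between 11.78 and 12.14 on the 22 arrays. This mean does not check the subset labels: of the 8 genes, 0 were called between the subsets on day 1, 1 on day 2 and 0 on day 4. Markers of other cells were not at 0 and some moved with time: the mean of the skeletal muscle list lay between 6.84 and 7.20 up to day 4 and between 7.48 and 7.88 in the Gr1-negative cells of day 8, and that of the T and NK cell list lay between 6.33 and 6.44 in the Gr1-positive cells of day 1 and between 8.14 and 9.93 in those of day 4. The Gr1-positive replicate 1 of day 2 stood apart from its group, as shown with the results it touches. In sorted bulk samples a change in the mix of cells cannot be told apart from a change in the RNA of each cell.

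**Figure D1:**
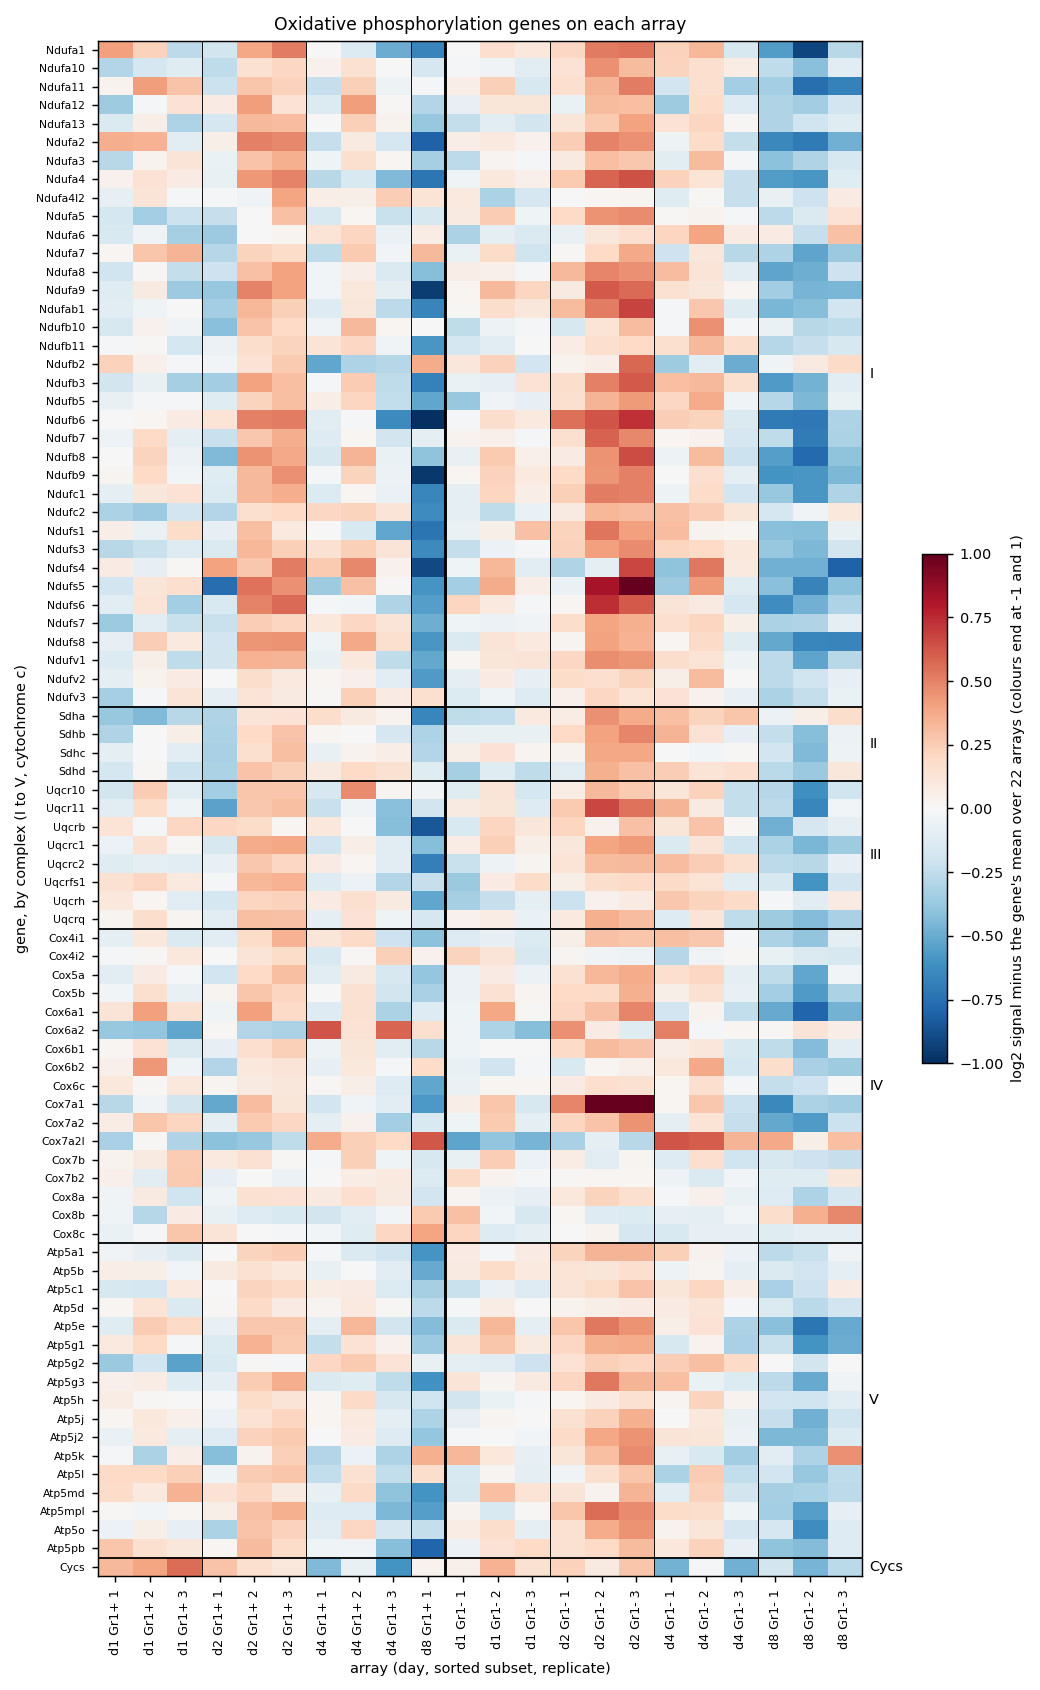
Heat map of the 83 members (rows, grouped by complex) on the 22 arrays (columns, by subset, day and replicate); colour is the log2 signal minus the mean of that gene over all arrays, from -1 (blue) to 1 (red). Most rows are red on the day 2 Gr1-negative arrays and blue on the day 8 arrays, while Cycs and Cox7a2l follow courses of their own.

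The median signal of the subunit genes was highest on day 2 and lowest on day 8. Each gene was centred on its mean over all arrays, and the median of the 83 members was taken on every array. In the Gr1-negative cells this median was -0.05, 0.08 and -0.02 on day 1 and 0.13, 0.32 and 0.36 on day 2. It was 0.06, 0.17 and -0.08 on day 4 and -0.27, -0.43 and -0.14 on day 8. The day 2 arrays lay above the day 1 arrays, and the day 8 arrays lay below all others of the subset. The median in the Gr1-positive cells was -0.06, 0.06 and -0.02 on day 1, -0.11, 0.25 and 0.24 on day 2, and -0.03, 0.10 and -0.11 on day 4. Replicate 1 of day 2 was the lowest Gr1-positive array up to day 4 together with 1 array of day 4, and the other arrays of day 2 were the highest of that subset. The single Gr1-positive array of day 8 stood at -0.37. Over all 19938 genes the same median stayed between -0.05 and 0.07. Over the 11055 genes that passed a filter on low values it lay between -0.11 and 0.08, with -0.11 on day 2 Gr1-positive replicate 1. On the Gr1-negative arrays the median of these genes was 0.03, 0.07 and 0.07 on day 2 and -0.05, -0.07 and -0.03 on day 8.

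**Figure D2:**
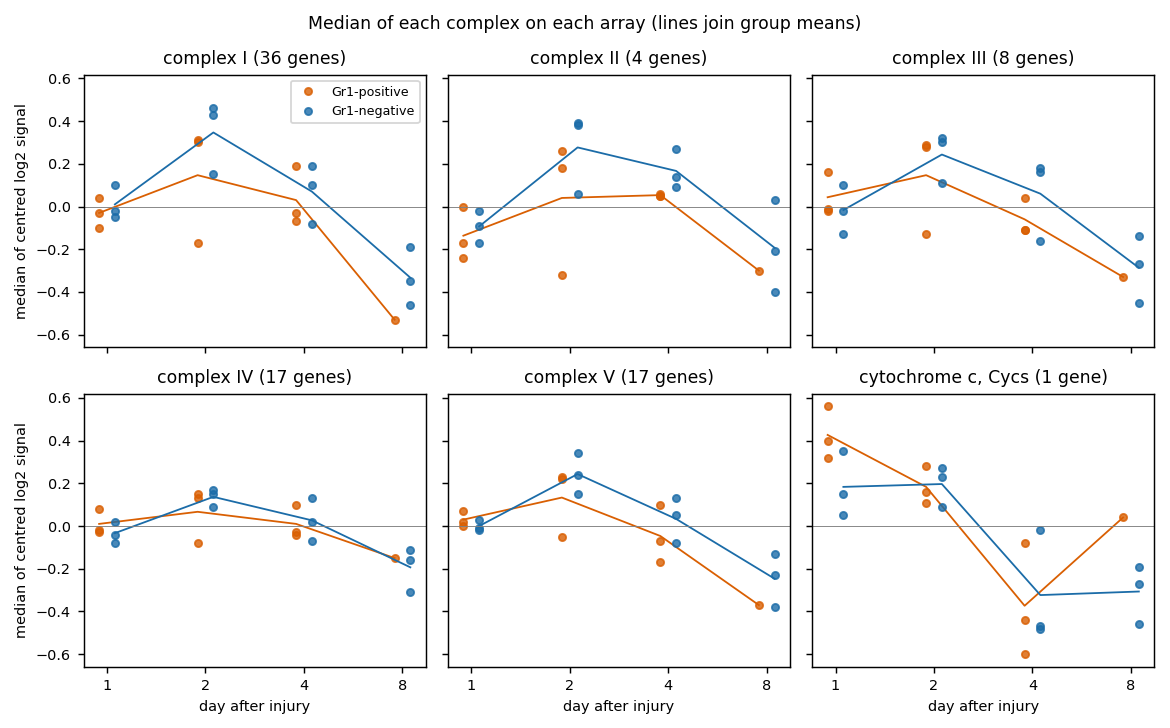
Median centred log2 signal of the members of each complex on each array (points) against the day after injury, with lines joining the group means; orange is Gr1-positive, blue Gr1-negative. In the Gr1-negative cells the group mean of complex I goes from 0.35 on day 2 to -0.33 on day 8 and that of complex IV from 0.14 to -0.19, while Cycs is high on days 1 and 2 and low on day 4.

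From day 1 to day 2, 7 members rose in the Gr1-negative cells at an adjusted p under 0.05 and none fell. That was 8.4% of the members, beside 3.8% of all genes called higher, 1.08% called lower, and 6.5% called higher of the 11055 genes that passed a filter on low values. The difference was above 0 for 78 of 83 members, with a median of 0.27 against 0.02 over all genes. The genes called were Ndufb6 and Ndufs3 of complex I, Sdha of complex II, Uqcrc2 of complex III, Cox7a1 of complex IV, and Atp5g2 and Atp5mpl of complex V. The calls were few against the 37 members with an unadjusted p under 0.05, and they depended on single arrays. The count was 0 without day 1 Gr1-negative replicate 1, day 2 Gr1-negative replicate 2 or day 2 Gr1-negative replicate 3, 2 without day 1 Gr1-negative replicate 2 or 3, and 4 without day 1 Gr1-positive replicate 1. It was 14 without day 2 Gr1-negative replicate 1 and 18 without day 2 Gr1-positive replicate 1, where 6.27% of all genes were called higher. Here and below, a count with an array left out may stand without such a share. It then does not show whether the members or all genes gained or lost calls. Of the proliferating cell markers 4 of 6 rose over the same step, with a median difference of 0.86, and the list averaged 7.34 to 7.78 on day 1 and 8.43 to 8.80 on day 2. Their part in the members' rise was not tested.

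In the Gr1-positive cells no member was called between day 1 and day 2, where 11 had an unadjusted p under 0.05 and 0.16% of all genes were called higher and 0.13% lower. The difference was above 0 for 69 of 83 members, with a median of 0.12 against 0.06 over all genes. Without day 2 Gr1-positive replicate 1, whose weight in a fit with array weights was 0.22, 12 members were called higher, beside 3.62% of all genes. A test of whether the subsets changed unequally from day 1 to day 2 called 0 members, with 2 at an unadjusted p under 0.05, and 0.0% of all genes. The step was therefore not shown to differ between the subsets.

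From day 2 to day 4, 10 members fell and 1 rose in the Gr1-negative cells, beside 6.69% of all genes called lower and 8.15% called higher. Those that fell were 12.0% of the members, near the 11.2% called lower of the genes past the low value filter. The median was -0.20 against -0.07 over all genes, and 71 of 83 members were below 0. Of the genes that fell, 6 were of complex I (Ndufb2, Ndufb6, Ndufab1, Ndufb7, Ndufa2 and Ndufc1), 2 of complex IV (Cox7a1 and Cox6a1) and 1 of complex V (Atp5g1), and the last was Cycs. Cox7a2l rose. The count of 11 became 19 without day 2 Gr1-positive replicate 1, 7 without day 4 Gr1-positive replicate 1, and 6 without day 4 Gr1-negative replicate 1. It was 4 without day 2 Gr1-negative replicate 2, and 2 without day 2 Gr1-negative replicate 3 or day 4 Gr1-negative replicate 3. Fitted on the genes past the low value filter, 16 members fell, beside 12.9% of the genes in that fit. Of the dendritic cell markers 5 of 8 rose over this step, with list means of 8.33 to 8.76 on day 2 and 9.29 to 9.89 on day 4, as did 4 of 6 proliferating and 3 of 7 T and NK cell markers, and their part was not tested.

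Over the same step 7 members fell and 2 rose in the Gr1-positive cells, beside 7.44% of all genes called lower and 11.8% called higher. The members that fell were 8.4%, below the 12.2% called lower of the genes past the low value filter. Ndufb6, Ndufa4, Ndufb2 and Ndufa2 of complex I, Atp5mpl and Atp5a1 of complex V and Cycs fell, and Cox7a2l and Cox6a2 of complex IV rose. Cycs, Ndufa2, Ndufb2 and Ndufb6 fell in both subsets, which is 4 of the 10 on the Gr1-negative and 4 of the 7 on the Gr1-positive list. The count of 9 was 20 without day 2 Gr1-positive replicate 1, and 5 without day 2 Gr1-positive replicate 3 or day 4 Gr1-positive replicate 3. The test of unequal change between the subsets called no member from day 2 to day 4, with 2 at an unadjusted p under 0.05, where 0.01% of all genes were called higher and 0.00502% lower.

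From day 4 to day 8, which only the Gr1-negative cells cover with replicates, 22 members fell and 1 rose. That is 26.5% of the members against 7.34% of all genes and 12.0% of the genes past the low value filter, with 3.17% of all genes called higher. The difference was below 0 for 76 of 83 members, the median was -0.36 against 0.00 over all genes, and 61 members had an unadjusted p under 0.05. Complex I had 13 of 36 members called lower, complex V 6 of 17, complex IV 2 of 17, complex III 1 of 8 and complex II 0 of 4, with 2 complex II members at an unadjusted p under 0.05. The median difference was -0.43 in complex I, -0.38 in complex III, -0.29 in complexes II and V, and -0.27 in complex IV. The count of 23 was 41 without day 2 Gr1-positive replicate 1, 5 without day 8 Gr1-negative replicate 1, 4 without day 4 Gr1-negative replicate 1 or 2, and 1 without day 8 Gr1-negative replicate 2. The shares of all genes called in these fits are not given here, so the 41 is not a result about the members alone. Markers of other cells moved over this step as well. Of the dendritic cell markers 4 of 8 fell, with list means of 9.29 to 9.89 on day 4 and 8.81 to 9.27 on day 8, 3 of 6 proliferating cell markers fell, with 9.06 to 9.52 and 8.28 to 9.13, and 8 of 10 skeletal muscle markers rose. Their part in the members' fall was not tested.

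**Figure D3:**
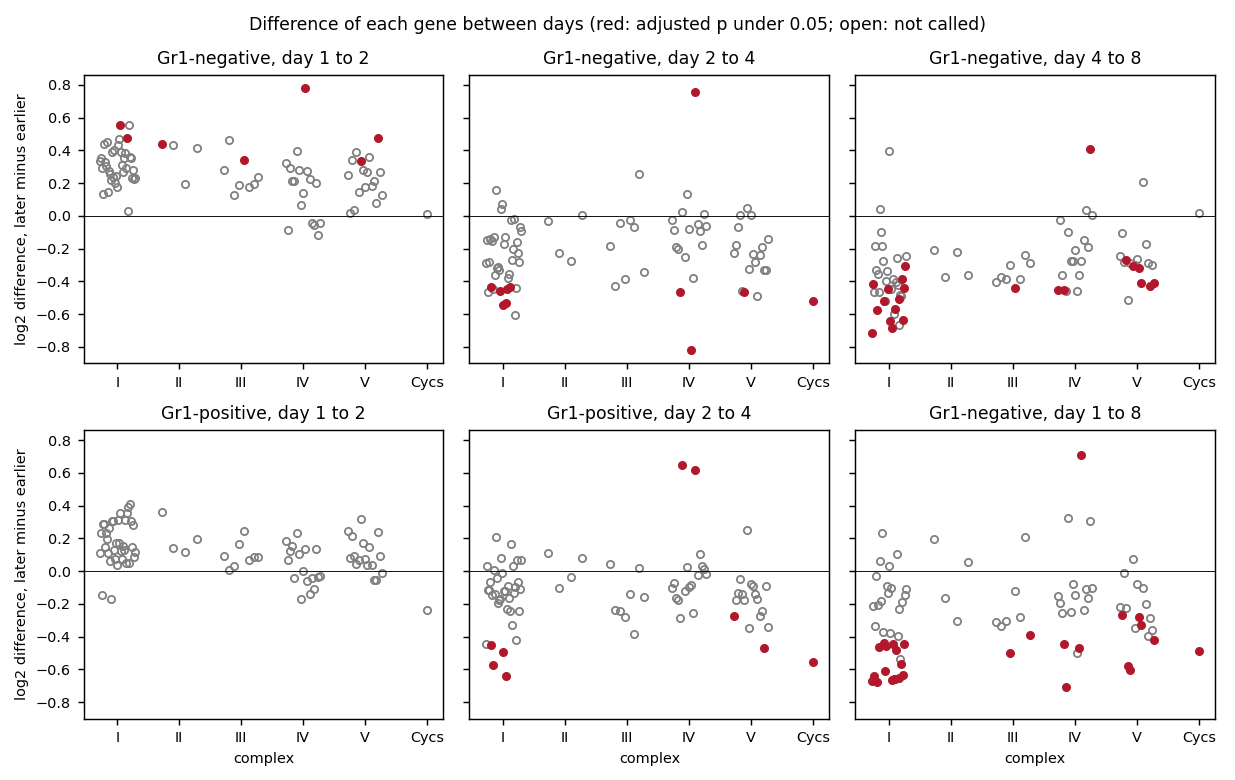
Log2 difference of each member (point) between the days named above each panel, later minus earlier, arranged by complex on the horizontal axis; filled red points have an adjusted p under 0.05 and open points were not called. In the Gr1-negative panels nearly all points lie above 0 from day 1 to 2 and below 0 from day 4 to 8, with Cox7a2l alone called higher from day 1 to 8.

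Between the first and the last day, 28 members fell in the Gr1-negative cells and Cox7a2l rose. The members called lower were 33.7%, against 9.77% of all genes and 16.6% of those past the low value filter, and 8.68% of all genes were called higher. The median difference was -0.28 against -0.02 over all genes, and 72 of 83 members lay below 0. Complex I had 16 of 36 members lower, complex V 6 of 17, complex IV 3 of 17, complex III 2 of 8, complex II 0 of 4 with 1 at an unadjusted p under 0.05, and Cycs was lower as well. Cox7a2l and 8 of the genes that fell kept their call whichever single array was left out: Atp5b, Atp5g1, Cox5b, Cox6a1, Ndufa2, Ndufb6, Ndufb9 and Ndufs8. The count of 29 was 9 without day 1 Gr1-negative replicate 2 or day 8 Gr1-negative replicate 2, and 17 without day 1 Gr1-negative replicate 3. Markers of other cells moved between these days as well. Of the skeletal muscle markers 9 of 10 rose, and of the T and NK cell markers 5 of 7. Of the proliferating cell markers 4 of 6 rose and of the fibroblast markers 3 of 5, and in these lists none fell. Of 9 neutrophil markers 2 fell and 1 rose. Among the endothelial markers 2 of 3 fell, and 1 of 8 dendritic cell and 1 of 2 B cell markers rose. The macrophage list moved too, with 4 of 8 genes higher and 2 lower. Their part in the members' fall was not tested.

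**Figure D4:**
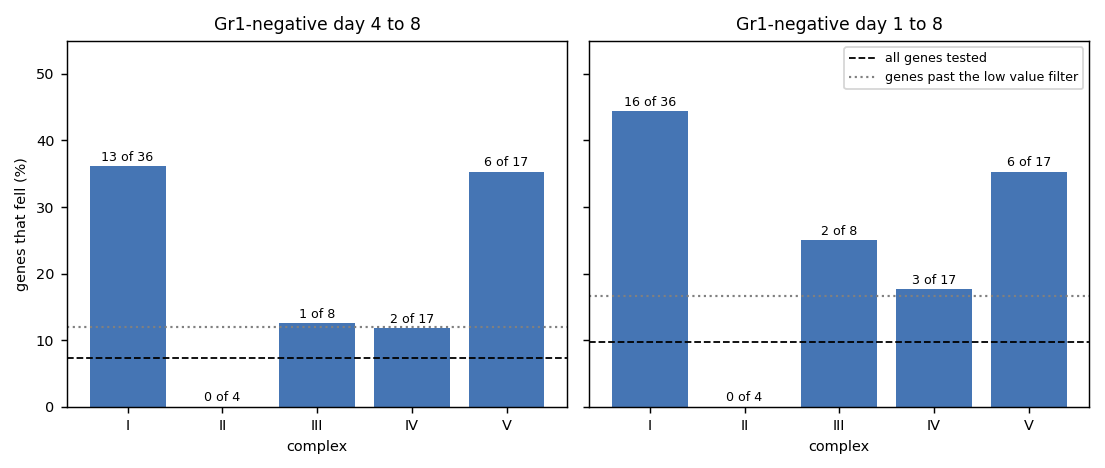
Percent of the members of complexes I to V that fell in the Gr1-negative cells from day 4 to 8 (left) and from day 1 to 8 (right), with the counts above the bars; the dashed line is the percent of all genes called lower and the dotted line that of the genes past the low value filter. The bars of complexes I and V stand above both lines in both panels, and complex II has none. On the left, complex III (1 of 8, 12.5%) and complex IV (2 of 17, 11.8%) lie near the dotted line at 12.0%. On the right, complex III (2 of 8, 25.0%) stands above both lines. There complex IV (3 of 17, 17.6%) lies near the dotted line at 16.6%. The bars also count members that did not pass the filter.

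Between day 1 and day 4 the members were called no more often than other genes. In the Gr1-negative cells 8 rose and 1 fell, beside 15.5% of all genes called higher and 8.67% called lower (24.1% and 13.3% of those past the low value filter), so the members' share of 9.6% was below the background. In the Gr1-positive cells 7 rose and 3 fell, beside 16.2% and 9.42% (26.1% and 15.6% past the filter). The medians were 0.02 and -0.01. Atp5g2, Cox7a2l, Ndufc2 and Sdha rose in both subsets, which is 4 of the 8 on the Gr1-negative and 4 of the 7 on the Gr1-positive list. Without day 4 Gr1-negative replicate 1 the first count of 9 was 4, and without day 1 Gr1-positive replicate 1 the second count of 10 was 6. On the table normalized by quantiles again, the split was 14 higher and 2 lower in the Gr1-negative and 10 higher and 6 lower in the Gr1-positive cells.

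In complex I, Ndufb6 was called in all 3 steps of the Gr1-negative cells. This accessory subunit of the membrane arm measured 10.97, 11.16 and 11.08 in the Gr1-negative cells on day 1, 11.53, 11.61 and 11.71 on day 2, 11.23, 11.20 and 10.83 on day 4, and 10.27, 10.26 and 10.67 on day 8. All day 2 arrays were above and all day 8 arrays below every other array of the subset. Ndufb6 rose by 0.55 ± 0.15 (SE) from day 1 to 2 (adjusted p = 0.0424), fell by 0.53 ± 0.15 to day 4 (adjusted p = 0.0231) and fell by 0.69 ± 0.15 to day 8 (adjusted p = 0.0117). On the Gr1-positive arrays it measured 11.12, 11.49 and 11.49 on day 2 and 10.87, 10.97 and 10.35 on day 4, a fall of 0.64 ± 0.15 (adjusted p = 0.00529), and 9.73 on the only array of day 8.

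Ndufs3, a core subunit of the arm that projects into the matrix, measured 10.12, 10.30 and 10.35 in the Gr1-negative cells on day 1 and 10.59, 10.78 and 10.84 on day 2. On day 4 it measured 10.58, 10.56 and 10.47, and on day 8 it was 9.99, 9.91 and 10.18. The rise was 0.48 ± 0.11 (adjusted p = 0.0187) and the fall from day 4 to day 8 was 0.51 ± 0.11 (adjusted p = 0.0107). Ndufs3 in the Gr1-positive cells was 0.38 ± 0.11 higher on day 4 than on day 1 (adjusted p = 0.0140). Among the core subunits that carry the electron path, Ndufs7, Ndufs8, Ndufv1 and Ndufv2 also fell from day 4 to 8, by 0.30 (Ndufv2) to 0.64 (Ndufs8). Ndufs1, another of them, went from a mean of 9.12 on day 4 to 8.70 on day 8 and was not called.

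Ndufb11, another membrane arm subunit, was the only member whose fall from day 4 to day 8 was called whichever array was left out. It measured 11.48, 11.64 and 11.50 on day 4 and 11.03, 11.09 and 11.16 on day 8 in the Gr1-negative cells, without overlap. The difference was -0.45 ± 0.09 (adjusted p = 0.00776, up to 0.0405 with an array left out). The fall that was largest by size was that of Ndufa1, a small subunit needed for complex I assembly, with -0.72 ± 0.20 (adjusted p = 0.0330). Ndufb2 took another course: it fell from day 2 to 4 by 0.54 in the Gr1-negative and by 0.50 in the Gr1-positive cells (adjusted p = 0.0142 and 0.0194). Its Gr1-negative arrays of day 8, at 8.26, 8.39 and 8.49, stood above those of day 4, at 7.95, 8.20 and 7.81, and the difference was not called.

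Complex II, the smallest complex and the one that also serves the citric acid cycle, had its only calls in Sdha, the flavoprotein subunit that oxidises succinate. Sdha measured 10.51, 10.52 and 10.87 on day 1, 10.85, 11.23 and 11.14 on day 2, 11.07, 11.00 and 11.05 on day 4, and 10.71, 10.83 and 10.94 on day 8 in the Gr1-negative cells. The day 1 and day 2 arrays overlapped narrowly, and the rise of 0.44 ± 0.12 had an adjusted p of 0.0496. From day 1 to day 4 Sdha was 0.40 higher in the Gr1-negative cells (adjusted p = 0.0224) and 0.47 higher in the Gr1-positive cells (adjusted p = 0.00829), where it went from 10.39, 10.33 and 10.49 to 10.94, 10.86 and 10.81. On day 8 the single Gr1-positive array read 10.12, which lay 0.71 ± 0.18 below the Gr1-negative mean (adjusted p = 0.0417). This was the only member called between subsets on that day; the spread of the single array was taken from the other groups, and the call was lost without any 1 of 8 other arrays. Marker lists also differed between the subsets on day 8. The median difference, Gr1-negative minus Gr1-positive, was -1.02 over the neutrophil list, 3.51 over the mast cell list and 0.71 over the dendritic cell list. The part of these cells in the Sdha difference was not tested. The other complex II genes, the iron-sulfur subunit Sdhb and the membrane anchors Sdhc and Sdhd, differed by 0.44, 0.20 and 0.41 from day 1 to day 2 and by -0.38, -0.22 and -0.36 from day 4 to day 8 in the Gr1-negative cells, and none of these differences was called.

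In complex III, Uqcrc2, a core protein of the matrix side, rose from 11.06, 11.24 and 11.31 on day 1 to 11.43, 11.60 and 11.61 on day 2 in the Gr1-negative cells, by 0.34 ± 0.10 (adjusted p = 0.0499). It fell from 11.59, 11.53 and 11.44 on day 4 to 11.03, 11.01 and 11.20 on day 8, by 0.44 ± 0.10 (adjusted p = 0.0115), and the arrays of these days did not overlap. Its partner Uqcrc1 fell from 11.07, 11.24 and 11.06 on day 1 to 10.68, 10.54 and 10.64 on day 8, by 0.50 ± 0.13 (adjusted p = 0.0114). Uqcrh, the hinge protein that binds cytochrome c1, was higher on day 4 than on day 1 by 0.45 ± 0.11 (adjusted p = 0.00405), with 11.60, 11.55 and 11.52 against 10.99, 11.09 and 11.22. Uqcrh kept that call with each array left out. Uqcrfs1 went from a mean of 9.05 on day 4 to 8.66 on day 8 in the Gr1-negative cells and was not called.

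In complex IV single members moved in opposite directions. Cox7a2l, which is known for joining complexes III and IV into supercomplexes, was the member that rose most. Supercomplexes, and the activity of the Cox7a2l protein in this mouse strain, were not measured. In the Gr1-negative cells it measured 8.58, 8.72 and 8.64 on day 1, 8.79, 9.01 and 8.83 on day 2, 9.74, 9.71 and 9.44 on day 4, and 9.49, 9.17 and 9.41 on day 8. Every array of days 4 and 8 lay above every array of days 1 and 2. It was 1.98-fold higher on day 4 than on day 1 (log2 difference 0.99 ± 0.11, adjusted p = 3.5e-06), and its rise from day 2 to day 4 was 0.76 ± 0.11 (adjusted p = 0.000127). On day 8 it was still 0.71 above day 1 (adjusted p = 0.000157), while 28 other members were lower. In the Gr1-positive cells it went from 8.70, 8.73 and 8.85 on day 2 to 9.48, 9.35 and 9.31 on day 4, by 0.62 ± 0.11 (adjusted p = 0.000536), and read 9.73 on day 8. A lower probe set of the gene gave 1.12 from day 1 to day 4 in the Gr1-negative cells.

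Among the complex IV genes with a form known from heart and skeletal muscle, Cox7a1 peaked on day 2 in the Gr1-negative cells. It measured 8.49, 8.70 and 8.27 on day 1, 8.91, 9.43 and 9.47 on day 2, 8.45, 8.70 and 8.21 on day 4, and 7.78, 8.11 and 8.08 on day 8. The day 2 arrays stood above all others, with a rise of 0.78 ± 0.19 (1.72-fold, adjusted p = 0.0208) and a fall to day 4 of 0.82 ± 0.19 (adjusted p = 0.00488). In the Gr1-positive cells of day 2 the gene read 7.91, 8.74 and 8.54, which put it 0.87 ± 0.19 below the Gr1-negative mean (adjusted p = 0.0150). The skeletal muscle list averaged 6.95 to 7.02 on the Gr1-negative arrays of day 2, within its range of days 1 to 4. The proliferating cell list, of 6 measured genes, averaged 8.43 to 8.80 there against 7.42 to 7.51 in the Gr1-positive cells of day 2, with 5 of 6 called higher. The dendritic cell list averaged 8.33 to 8.76 against 7.07 to 7.46, with 6 of 8 called higher, and the neutrophil list 6.91 to 7.13 against 7.60 to 7.72, with 3 of 9 called lower. The part of these cells in the difference was not tested.

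Cox6a2, the muscle form of subunit 6a, rose in the Gr1-positive cells from 8.37, 8.35 and 8.23 on day 1 and 8.76, 8.45 and 8.43 on day 2 to 9.37, 8.89 and 9.32 on day 4. All day 4 arrays lay above the earlier ones. The difference from day 1 to day 4 was 0.88 ± 0.16, or 1.84-fold (adjusted p = 0.000424), and the skeletal muscle list averaged 7.01 to 7.12 on day 1 and 7.03 to 7.20 on day 4 in these cells. Of its 10 genes Acta1, skeletal muscle actin, rose from day 2 to day 4, by 0.59 (adjusted p = 0.0388), and its part was not tested. The dendritic cell list averaged 7.07 to 7.11 and 8.35 to 8.68 on the same days, and its part, like that of the T and NK cell genes, was not tested. Its ubiquitous counterpart Cox6a1 fell in the Gr1-negative cells from 10.94, 11.37 and 10.99 on day 1 to 10.47, 10.18 and 10.50 on day 8, by 0.71 ± 0.15 (adjusted p = 0.00211).

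Cox8b, the muscle form of subunit 8, was the 1 member that rose from day 4 to day 8. It measured 6.94, 6.92 and 6.99 on day 4 and 7.20, 7.38 and 7.50 on day 8 in the Gr1-negative cells, a difference of 0.41 ± 0.11 (adjusted p = 0.0285). Of the 10 skeletal muscle markers 8 rose over the same step, Acta1 from a mean of 8.96 to 9.99 and Ckm from 7.94 to 8.98, and their part in the rise of Cox8b was not tested. Cox8b did not pass the low value filter, as was also true of Cox7b2 and Ndufa4l2. Of the general subunits, Cox5b fell from 11.71, 11.81 and 11.59 to 11.32, 11.09 and 11.35 and Cox4i1 fell as well, each by 0.45 (adjusted p = 0.0154 and 0.0334).

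The remaining isoform genes of complex IV gave no call in the steps between neighbouring days. Cox4i2, the form of subunit 4 known from lung and hypoxia, differed by -0.02 from day 4 to day 8, and the testis forms Cox6b2, Cox7b2 and Cox8c by -0.27, 0.03 and 0.00. Their general counterparts Cox6b1, Cox7b and Cox8a differed by -0.28, -0.15 and -0.19 over that step, and Cox5a, the subunit beside Cox5b, by -0.36. Cox7a2, the general form beside Cox7a1, differed by -0.38 from day 2 to day 4 and by -0.36 from day 4 to day 8 without a call, and over the whole course from day 1 to day 8 it fell by 0.47 (adjusted p = 0.0177).

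In complex V the genes of subunit c, the protein of the rotor ring, took different courses. Atp5g1 measured 12.12, 12.27 and 12.08 on day 1, 12.20, 12.35 and 12.36 on day 2, 11.83, 12.03 and 11.66 on day 4, and 11.77, 11.39 and 11.49 on day 8 in the Gr1-negative cells. It fell by 0.46 ± 0.13 from day 2 to day 4 (adjusted p = 0.0251), and on day 8 it was 0.61 ± 0.13 below day 1 (adjusted p = 0.00336). Atp5g2, which encodes the same mature protein, measured 11.94, 11.93 and 11.82 on day 1, 12.18, 12.27 and 12.25 on day 2, 12.28, 12.33 and 12.23 on day 4, and 12.03, 11.85 and 12.04 on day 8. It was higher on day 4 than on day 1 by 0.38 ± 0.09 (adjusted p = 0.00285) and fell by 0.31 ± 0.09 to day 8 (adjusted p = 0.0331). Atp5g2 in the Gr1-positive cells went from 11.67, 11.84 and 11.50 on day 1 to 12.24, 12.30 and 12.17 on day 4, by 0.57 ± 0.09 (adjusted p = 7e-05), and there Atp5g1 differed by -0.11 and was not called. The difference between the courses of these genes was not itself tested. Atp5g3, the other gene of subunit c, differed by 0.28, -0.33 and -0.30 in the 3 steps of the Gr1-negative cells, with no call. All 3 probe sets of Atp5g2 gave between 0.55 and 0.57 for that step.

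Of the catalytic head, Atp5a1 (alpha) and Atp5c1 (gamma) differed by -0.25 and -0.28 from day 4 to day 8 in the Gr1-negative cells, and neither was called. The catalytic beta subunit Atp5b measured 12.37, 12.47 and 12.38 on day 1 and 12.14, 12.09 and 12.19 on day 8 in the Gr1-negative cells, without overlap, a fall of 0.27 ± 0.07 (adjusted p = 0.00812). Atp5mpl, a small membrane subunit, followed the course of complex I with 10.70, 10.51 and 10.67 on day 1, 10.94, 11.22 and 11.14 on day 2, 10.85, 10.84 and 10.62 on day 4, and 10.32, 10.11 and 10.58 on day 8. Its rise was 0.47 ± 0.12 (adjusted p = 0.0304) and its fall from day 4 to 8 was 0.43 ± 0.12 (adjusted p = 0.0326).

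Cytochrome c, the carrier between complexes III and IV and a trigger of apoptosis once released, fell from day 2 to day 4 in both subsets. Cycs measured 11.63, 11.71 and 11.87 in the Gr1-positive cells on day 1, 11.60, 11.47 and 11.42 on day 2 and 10.87, 11.24 and 10.71 on day 4. The day 4 arrays lay below all earlier ones, 1.74-fold lower than day 1 (log2 difference -0.80 ± 0.14, adjusted p = 0.000221), and the array of day 8 read 11.35. In the Gr1-negative cells Cycs measured 11.36, 11.66 and 11.47 on day 1, 11.54, 11.40 and 11.59 on day 2, 10.84, 11.30 and 10.83 on day 4, and 11.13, 10.85 and 11.05 on day 8. It fell by 0.52 ± 0.14 from day 2 to day 4 (adjusted p = 0.0141), differed by 0.02 from day 4 to day 8 and stood 0.49 below day 1 on day 8 (adjusted p = 0.0167). Another probe set gave -0.83 for the Gr1-positive step from day 1 to day 4. In the Gr1-negative cells it gave -0.48 from day 1 to day 4 and -0.54 from day 1 to day 8. The dimmest probe set, with a mean of 6.64, did not show the fall, with 0.32, 0.23 and 0.02 in the same comparisons.

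**Figure D5:**
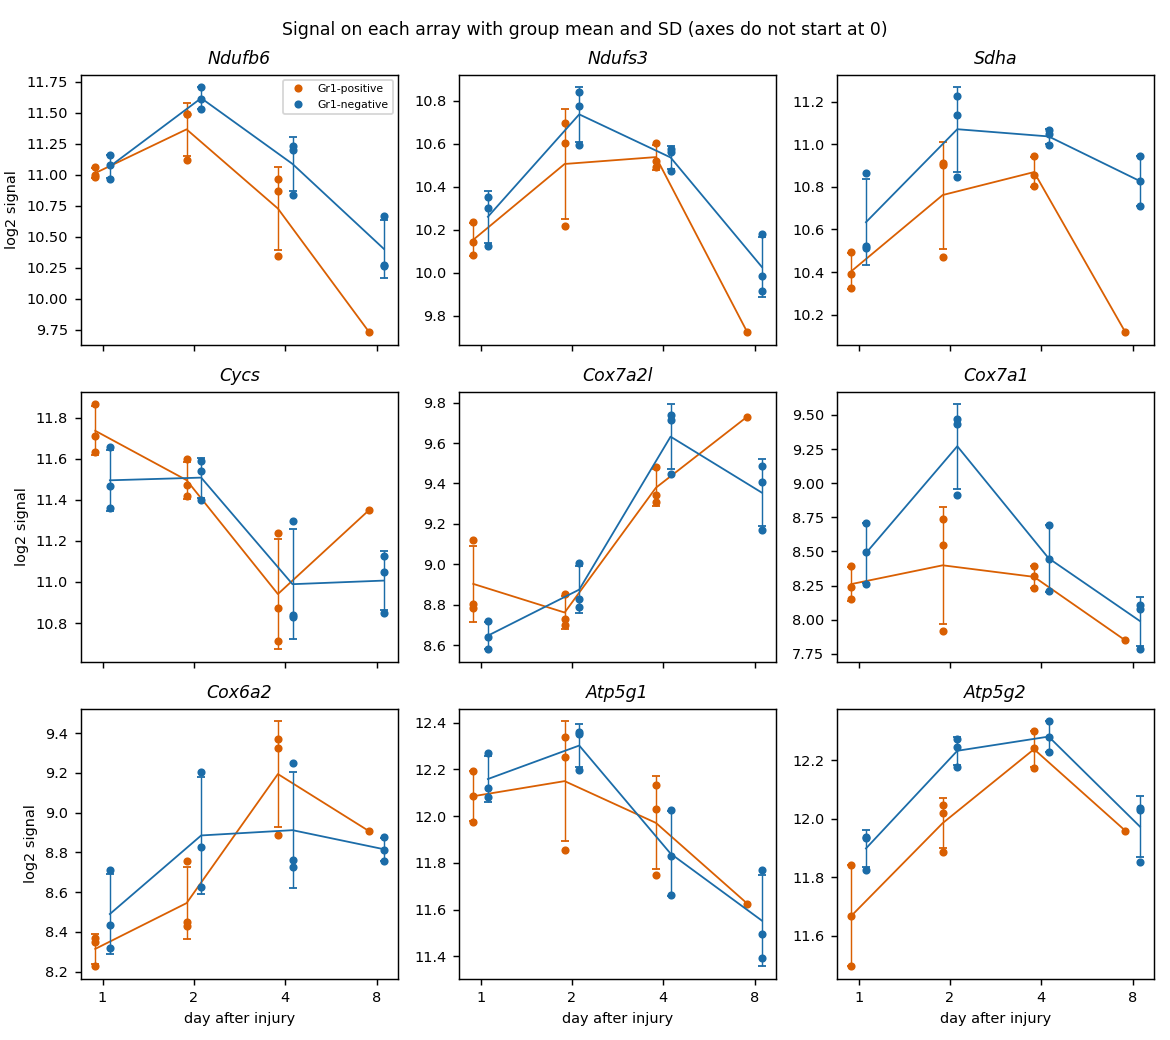
Log2 signal of 9 members on each array (points) against the day after injury, with group means joined by lines and bars of 1 SD; orange is Gr1-positive, blue Gr1-negative, and the vertical axes do not start at 0. Ndufb6, Ndufs3 and Cox7a1 peak on day 2 in the Gr1-negative cells, Cox7a2l steps up by day 4, Cycs steps down by day 4, and on day 8 Atp5g1 lies below its day 1 arrays in the Gr1-negative cells while Atp5g2 overlaps its own.

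Few members were called between the subsets of a day. On day 1 no member was called, with 4 at an unadjusted p under 0.05, beside 0.682% of all genes called higher and 0.176% called lower in the Gr1-negative cells. On day 2 Cox7a1 alone was called, beside 2.85% and 0.682%, and 71 of 83 members lay above 0 with a median of 0.15 against -0.03 over all genes. The Cox7a1 call was lost without day 2 Gr1-positive replicate 1, day 2 Gr1-negative replicate 2 or day 2 Gr1-negative replicate 3. On day 4 no member was called, with 6 at an unadjusted p under 0.05, beside 0.547% and 0.171%. On day 8, with 1 Gr1-positive array whose spread was taken from the other groups, Sdha was called beside 1.33% and 0.692% of all genes. The Sdha call was lost without day 1 Gr1-positive replicate 1, day 2 Gr1-negative replicate 3, day 4 Gr1-positive replicate 2, day 4 Gr1-negative replicate 1, 2 or 3, or day 8 Gr1-negative replicate 2 or 3. The count was 2 without day 1 Gr1-negative replicate 1, 3 without day 8 Gr1-negative replicate 1 and 5 without day 2 Gr1-positive replicate 1, and on the table normalized by quantiles again it was 3 higher and 3 lower. The test of unequal change from day 1 to day 4 called 0 members, with 3 at an unadjusted p under 0.05, beside 0.0351% and 0.0602% of all genes.

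Genes that build and feed the respiratory chain were described by lists. Of 42 measured assembly factors, 5 rose and 0 fell in the Gr1-negative cells from day 1 to day 2, among them Tmem126b, of the complex I assembly complex, by 0.85 (adjusted p = 0.0204). The background for that step was 3.8% of all genes called higher. From day 4 to day 8, 17 fell and 1 rose, with a median of -0.34, beside 7.34% of all genes called lower and 12.0% of those past the low value filter. Surf1, needed to build complex IV, was 1.10 higher on day 4 than on day 1 in the Gr1-negative and 0.97 higher in the Gr1-positive cells (adjusted p = 2.12e-05 and 5.88e-05). Cox17, the copper carrier for complex IV, was lower by 0.70 and 1.19 in the same comparisons (adjusted p = 0.00818 and 7.66e-05).

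Of 20 measured genes of the citric acid cycle and pyruvate entry, 6 fell in the Gr1-negative and 8 in the Gr1-positive cells from day 2 to day 4, and none rose, beside 6.69% and 7.44% of all genes called lower. Acod1, which diverts cis-aconitate to itaconate and is known from inflammatory macrophages, fell by 1.89 and 1.34, and Idh3a, of the NAD-dependent isocitrate dehydrogenase, by 0.79 and 0.80. From day 4 to day 8 in the Gr1-negative cells 4 fell, Fh1 by 0.54 among them, and Acod1 rose by 1.39 (adjusted p = 0.0138). Of 18 inner membrane carriers and pores 6 fell and 1 rose over that step, beside the same 7.34% of all genes called lower. Gpd2, the glycerol phosphate shuttle enzyme that feeds electrons to ubiquinone, was lower on day 4 than on day 1 by 1.56 in the Gr1-negative and by 1.66 in the Gr1-positive cells (adjusted p = 1.32e-06 and 5.53e-07).

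Of 17 regulators of mitochondrial biogenesis none was called from day 1 to day 2 in the Gr1-negative cells and 1 fell from day 4 to day 8, Tfb1m, a mitochondrial transcription factor, by 0.98 (adjusted p = 0.00545). Between day 1 and day 4, 4 rose and 3 fell in each subset, which lies near the shares of genes past the low value filter (24.1% and 26.1% called higher, 13.3% and 15.6% lower). Tfam, which packages mitochondrial DNA, was 0.71 higher in the Gr1-negative and 0.75 higher in the Gr1-positive cells, Polg2, of the mitochondrial DNA polymerase, 1.19 and 1.30 higher, and Pprc1, a coactivator of the PGC-1 family, 0.99 and 0.58 lower. Gabpb1, the partner of GABPA that binds the ETS string of the promoters, was lower by 0.58 and 0.63. The subunits encoded by mitochondrial DNA were not analysed here.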

How the data were processed

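RNA of sorted macrophages was measured on 22 Affymetrix arrays. The authors deposited log2 values per probe set, made with RMA (robust multi-array average, which corrects background, normalizes by quantiles and summarises probes) per the submitters' processing notes; its version was not given in the sources used here. Of 35556 probe sets, 21789 named 1 gene in the platform annotation, 1621 several and 12146 none, and 21698 matched RefSeq. Only probe sets with 1 gene were used, and of 999 genes with several the one with the highest mean was kept, also for 18 members. The members Cox7c and Ndufb4, named only by probe sets of several genes, were not analysed here. Probe sets of members with processed gene copies may hold signal of these copies.

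One mean per group was fitted to all 22 arrays with limma 3.58.1 in R 4.3.3 (lmFit, contrasts.fit, eBayes without trend), in 15 comparisons, with Benjamini-Hochberg adjustment over 19938 genes and calls at an adjusted p under 0.05. The script was tested on simulated data. No array repeated another's values. Precision is limited by how few arrays a group has.

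The filter on low values kept genes above the median of all values, 7.37, on at least 3 arrays, which 80 of 83 members passed. Alternatives were this filter, quantile normalization again, the mean of a gene's probe sets, a variance trend, array weights, replicate blocks, and leaving out arrays. Named members were up to 3 per complex and direction with the largest called difference, or the largest difference where none was called, with Cycs, complex II, core subunits and isoform groups. The further called members listed by name, the genes plotted singly and the promoters printed were chosen after their values were seen. The members, gene lists and marker lists were chosen with earlier results of these data known. The 5 mitochondrial lists held assembly factors, citric acid cycle genes, carriers, biogenesis regulators and mitochondrially encoded subunits, and of the last 0 of 13 matched.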

Additional observations from a re-analysis of the deposited data

How the results depend on the processing

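Single differences were followed under the alternatives for the named members described above, and not for every member. No followed difference changed direction where it was called, under any alternative. Of the followed differences under all alternatives, 17540 stayed on their side of the threshold, 266 lost a call and 250 gained one. Another 35, called in neither fit, changed sign with a shift of at least their SE. The 17540 include differences called in neither fit, so they do not measure how often a call was kept. With array weights, which put the least weight (0.22) on day 2 Gr1-positive replicate 1, the members called in the Gr1-negative cells were 31 from day 1 to 2, 48 from day 2 to 4 and 51 from day 4 to 8, beside 14.2%, 30.9% and 24.0% of all genes. In the Gr1-positive cells they were 16 and 23 for the first steps, and 3 and 12 between the subsets on days 2 and 8, beside 9.24%, 28.5%, 15.3% and 7.33%. Without both day 2 arrays numbered 1 these counts were 29, 27, 46, 13 and 22, and 4 on day 8, beside 11.2%, 13.9%, 18.3%, 6.14%, 16.8% and 3.3% of all genes. On the genes past the low value filter 13 were called from day 1 to 2 and 17 from day 2 to 4 in the Gr1-negative cells, and 3 on day 8, beside 11.8%, 26.9% and 3.98% of the genes in that fit. On the table normalized by quantiles again the Gr1-negative counts were 18 from day 2 to 4 and 16 from day 1 to 4, the Gr1-positive counts 14 and 16, and 6 on day 8. With a variance trend 3 were called on day 8. Leaving out 1 array at a time gave 0 to 18, 2 to 19, 1 to 41, 4 to 12 and 9 to 34 calls in the Gr1-negative cells (day 1 to 2, 2 to 4, 4 to 8, 1 to 4 and 1 to 8). It gave 0 to 12, 5 to 20 and 6 to 12 in the Gr1-positive cells (day 1 to 2, 2 to 4 and 1 to 4), and 0 to 1 and 0 to 5 between subsets on days 2 and 8. The cause of these shifts was not tested, and fits that leave out an array also have fewer arrays. The counts after quantile normalization again, with a variance trend and the ranges with 1 array left out stand without the share of all genes. They do not show whether the members or all genes gained or lost calls.

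Same-numbered arrays of a day shared deviations from their group means (correlations of 0.0981 to 0.65 over all genes, 8 of 9 above 0.1, and 9 of 9 best with their own number). The labels do not say that the numbers pair samples, so this is a hint from the data and not the design. The counts with a block are given without the share of all genes called in the same fits. They do not show whether the members or all genes gained calls. With the number as a fixed replicate block, 7 members were called higher in the Gr1-negative cells on day 2 and 3 on day 4, 0 on day 8, and 1 in the test of unequal change between the subsets from day 2 to 4. With a random replicate block (correlation 0.278) 4 were called on day 2 and 6 on day 8.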
